A study of Mus musculus with 6 samples.

Results

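Cdkn1a, Cdkn1b, Cdkn2a, Cdkn2b, Cdkn2c and Cdkn2d encode inhibitors of the cyclin-dependent kinases, Trp53 and Rb1 encode the tumor suppressors p53 and Rb, and Lmnb1 encodes lamin B1 of the nuclear lamina. These 9 genes were chosen by gene symbol from the 33924 genes of the authors' table of poly(A)-selected RNA-seq, and all 9 were found. Each of the 6 libraries came from the pooled RPE/choroid of both eyes of 1 mouse of the C57BL/6J strain, 3 of them young and 3 aged. The labels give 1 to 2 months for the young mice and either 20 to 24 or 22 to 24 months for the aged mice. Males are given in the labels, and the paper's methods name wild-type mice of both sexes and a slightly older young group.

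The RPE is a layer of pigmented cells behind the photoreceptors that seldom divide in the adult eye, and the choroid is the vascular and pigmented tissue beneath it. A cell leaves the cell cycle when cyclin-dependent kinases are held in check. INK4 inhibitors bind the kinases of the D cyclins, CIP/KIP inhibitors act on the kinases of cyclin E and cyclin A, and Rb without phosphate holds E2F factors on their target genes. In senescence, a lasting arrest, p53 induces Cdkn1a, the Cdkn2a locus is derepressed and lamin B1 is lost, which is why these genes are widely used as markers of that state.

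For each gene the mean normalized count was used, which is the mean over the 6 libraries of the authors' normalized count. It averages young and aged libraries, so it gives a level in the tissue and neither a change with age nor a spread between mice. The remaining columns of the table are the authors' own comparison of the ages and were not used. No value below has an SD, and whether neighbors in the order of levels differ by more than mice do could not be examined. The means of all genes add up to 40816668, and the depth of single libraries is unknown. In bulk tissue, fewer cells of a type and less RNA per cell cannot be told apart, so no level can be assigned to RPE cells.

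Cdkn2a is a single line of the table although the gene has separate start sites for separate proteins. The distal start gives the mRNA of p19Arf, which stabilizes p53, and the start 12427 bases downstream gives that of p16Ink4a, which binds Cdk4 and Cdk6. The 250 bases before each start are shown because the deposited mean adds both mRNAs, which cannot be told apart in it. Both lie on the minus strand of GRCm38, the distal one at chr4:89294620-89294869 and the proximal one at chr4:89282193-89282442, and the sequences were taken from RefSeq (GRCm38.p6). Capitals mark a match to the E2F motif TTTCCCGC.
Cdkn2a distal start: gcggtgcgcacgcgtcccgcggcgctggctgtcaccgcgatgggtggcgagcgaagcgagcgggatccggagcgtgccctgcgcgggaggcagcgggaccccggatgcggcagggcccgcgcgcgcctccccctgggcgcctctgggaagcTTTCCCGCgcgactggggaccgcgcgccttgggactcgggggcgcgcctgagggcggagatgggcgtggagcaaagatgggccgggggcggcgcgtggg
Cdkn2a proximal start: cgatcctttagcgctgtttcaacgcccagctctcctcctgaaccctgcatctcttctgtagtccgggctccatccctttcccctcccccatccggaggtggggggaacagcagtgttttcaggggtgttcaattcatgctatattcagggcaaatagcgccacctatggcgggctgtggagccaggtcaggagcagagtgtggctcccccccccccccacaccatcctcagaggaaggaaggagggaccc
The window of the distal start had a GC content of 78.4% and 40 CpG dinucleotides, and that of the proximal start had 60.0% and 7. Over all promoter windows of the same length the medians were 52.4% and 6. The 2 E2F motifs searched were TTTCCCGC and TTTGGCGC, on both strands, and no match of one overlapped a match of the other in these windows. TTTCCCGC was found in the distal window, 99 bases before the start, and in 0.895% of all 32851 windows. Of the 10 windows of the 7 genes with an entry, this was the only one with either motif. TTTGGCGC was found in 0.417% of all windows.

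Cdkn1a encodes p21, the inhibitor that p53 induces after DNA damage. The window before its upstream start, at chr17:29090729-29090978 on the plus strand of GRCm38 (RefSeq, GRCm38.p6), is shown because it holds letters of the kind of site that p53 recognizes. Capitals mark 20 bases that match the p53 consensus, a pair of abutting half-sites, with 1 mismatch outside the cores of the half-sites.
Cdkn1a upstream start: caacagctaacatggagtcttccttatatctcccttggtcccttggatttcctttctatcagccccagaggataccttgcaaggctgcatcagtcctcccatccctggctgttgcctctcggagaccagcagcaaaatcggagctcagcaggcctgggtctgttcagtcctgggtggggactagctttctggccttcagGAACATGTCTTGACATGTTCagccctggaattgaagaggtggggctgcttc
The match begins 51 bases before this start. With 1 mismatch allowed, a match on either strand was found in 0.0457% of all windows and in none of the other 9 windows of these genes. The mismatch was allowed after the matches were seen, so this share is a description and no test. Without a mismatch none of the 10 windows matched, against 0.00913% of all windows. A match describes these letters and is no measurement of binding.

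All 9 genes were expressed above a mean normalized count of 10, the minimum used to define the background of 18479 genes. Together they held 0.0224% of all normalized counts. Cdkn1b had the highest mean normalized count, 5333, and Cdkn2a the lowest, 16.0. Between them lay Rb1 with 1108, Cdkn2c with 882, Cdkn2d with 836 and Lmnb1 with 469. Cdkn1a followed with 260.4, Trp53 with 129 and Cdkn2b with 116. Cdkn2a and Cdkn1a, both widely used as senescence markers, were at percentiles 4.53 and 33.7 of the background by mean normalized count. Cdkn1b was at percentile 91.8, and the remaining 6 genes lay between percentiles 23.9 and 61.4.

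Long mRNAs give more reads, so genes were compared with each other per kilobase of the longest transcript in GENCODE M21. On this scale the median of the 9 genes was 165 normalized counts per kilobase, and the median of the 17951 background genes with a known length was 214. Of the 9 genes, 4 were above the median of all genes and 5 below it. Cdkn1b was the only one in the upper quartile of all genes, above 669, whereas Trp53 and Cdkn2a were in the lower quartile, below 54.2. The highest level was 65.3 times the lowest, or 100.1 times with mean transcript length.

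**Figure D1:**
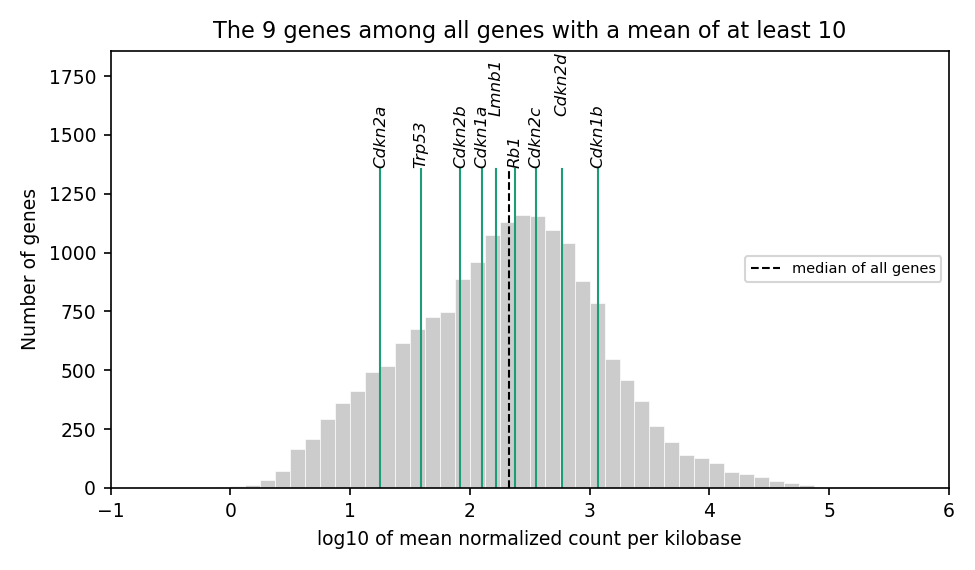
Number of genes (y axis) by the log10 of the mean normalized count per kilobase (x axis) for the 17951 background genes, in gray. Green lines mark the 9 genes, from Cdkn2a at the low end to Cdkn1b at the high end, and the dashed line marks the median of all genes, 214 per kilobase.

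The INK4 inhibitors share a fold of ankyrin repeats and bind Cdk4 and Cdk6. Cdkn2d, which encodes p19Ink4d, had the highest level of the 4 with 588 per kilobase, and Cdkn2c, which encodes p18Ink4c, followed with 357. These 2 genes made up 90.3% of the INK4 sum of 1046 per kilobase. Cdkn2b, which encodes p15Ink4b, was at 83.3 per kilobase. Cdkn2a was at 17.9 per kilobase, with Cdkn2d 32.8 times and Cdkn2b 4.65 times as high. Cdkn2a, Cdkn2b and Cdkn2c lie on the minus strand of chromosome 4, and 11645 bases separate Cdkn2a (ENSMUSG00000044303, 89274471 to 89294653) from Cdkn2b (ENSMUSG00000073802, 89306299 to 89311039). These neighbors had the lowest levels of the 4 INK4 genes. Cdkn2c (ENSMUSG00000028551) lies apart from them at 109660876 to 109667189, and Cdkn2d (ENSMUSG00000096472) lies on the minus strand of chromosome 9 at 21288410 to 21291407.

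The kinases that INK4 proteins bind were far from equal in level. Cdk4 had 1475 per kilobase and Cdk6 had 3.27, a ratio of 451, which was 221 with mean transcript length and 346 with total exon length. Their mean normalized counts, not divided by length, were 3029 and 37.7. The sum of both kinases was 1.41 times the sum of the 4 INK4 genes with the longest transcript, 2.12 times with mean transcript length and 0.978 times with total exon length, so which sum is larger depends on the length used. Cdk4 was the highest and Cdk6 the lowest of 8 G1 kinases and cyclins, whose median was 370 per kilobase with 5 of 8 above the median of all genes. With total exon length Ccnd1, the gene of cyclin D1, was higher than Cdk4.

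The CIP/KIP inhibitors bind complexes of cyclins and kinases. Cdkn1b, which encodes p27, a protein controlled largely by its breakdown, had 1172 per kilobase. Cdkn1a was at 125 per kilobase, so that Cdkn1b was 9.36 times as high. The third gene of the family, Cdkn1c, which encodes p57 and is not one of the 9, had 1899 per kilobase, 1.62 times the level of Cdkn1b. Cdkn1a made up 3.92% of the CIP/KIP sum. Cdk2, a kinase that p21 and p27 inhibit, had 858 per kilobase, which is below Cdkn1b and 6.85 times the level of Cdkn1a. With the longest protein-coding transcript Cdk2 and Cdkn1b were nearly equal, at 1163 and 1172 per kilobase. Of 6 genes in a list for the turnover of p27, Skp1a was the highest with 14301 per kilobase. Skp2, the ubiquitin ligase subunit that recognizes p27, was the lowest with 29.0. Cdkn1b (ENSMUSG00000003031) lies on the plus strand of chromosome 6 at 134920401 to 134925513, and Cdkn1a (ENSMUSG00000023067) on the plus strand of chromosome 17 at 29090976 to 29100727. Exons of a further annotated gene on the opposite strand, AC167363.2, overlap those of Cdkn1a, and reads in this overlap can be assigned only by strand.

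Rb1 encodes the first of the pocket proteins that restrain E2F factors. It had 238 per kilobase, close to the median of all genes. Its relatives Rbl2 and Rbl1, which encode p130 and p107, had 405 and 77.5 per kilobase. Rb1 was 3.07 times as high as Rbl1, or 6.53 times with mean transcript length, and Rbl2 was 1.70 times as high as Rb1. Of 13 pocket protein and E2F genes, 6 were above the median of all genes. Tfdp1, a partner of E2F factors, was the highest with 542 per kilobase and E2f8, an E2F repressor of dividing cells, the lowest with 3.15. With mean transcript length Rbl2 was the highest. Rb1 (ENSMUSG00000022105) lies on the minus strand of chromosome 14 at 73183673 to 73325822. Exons of Rcbtb2 and Lpar6 on the opposite strand overlap its exons, and reads in these overlaps can be assigned only by strand. The paper's methods name a kit that keeps the strand for rRNA-depleted RNA and no separate kit for the poly(A)-selected libraries. Whether the counting used the strand is not given in the sources used here.

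Trp53 had 39.3 per kilobase, the second lowest level of the 9 genes. Its longest annotated transcript, of 3275 bases, does not code for protein, and with the longest protein-coding transcript the level was 68.9 per kilobase. The other genes of the p53 family were lower still, with 28.1 per kilobase for Trp63 and 1.11 for Trp73. Of 16 regulators and targets of p53, 10 were above the median of all genes, and their median was 567 per kilobase. The lowest of the 16 was Pmaip1, a proapoptotic target, with 47.5 per kilobase, which lies between both values of Trp53, and the highest was Ccng1, a target that encodes cyclin G1, with 2546. Mdm2, the ubiquitin ligase that destroys p53 and is also its target, was 16.9 times as high as Trp53, or 9.66 times with the longest protein-coding transcript of each. Many of these genes are also expressed without p53, and mRNA levels do not give p53 protein, so these levels do not measure p53 activity. Trp53 (ENSMUSG00000059552) lies on the plus strand of chromosome 11 at 69580359 to 69591873.

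Lmnb1 had 165 per kilobase, the lowest level among 11 genes of the nuclear lamina and its processing. The other 10 were above the median of all genes, and the median of the 11 was 1004 per kilobase. Lmnb2, the gene of the other B-type lamin, was 1.50 times as high as Lmnb1. Lmna, the gene of the A-type lamins of differentiated cells, was the highest of the list with 1649 per kilobase, 9.99 times the level of Lmnb1. With total exon length Icmt, which encodes an enzyme of lamin processing, was higher than Lmna, and Lmnb1 was the lowest with each length tried. Lmnb1 (ENSMUSG00000024590) lies on the plus strand of chromosome 18 at 56707813 to 56753424.

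**Figure D2:**
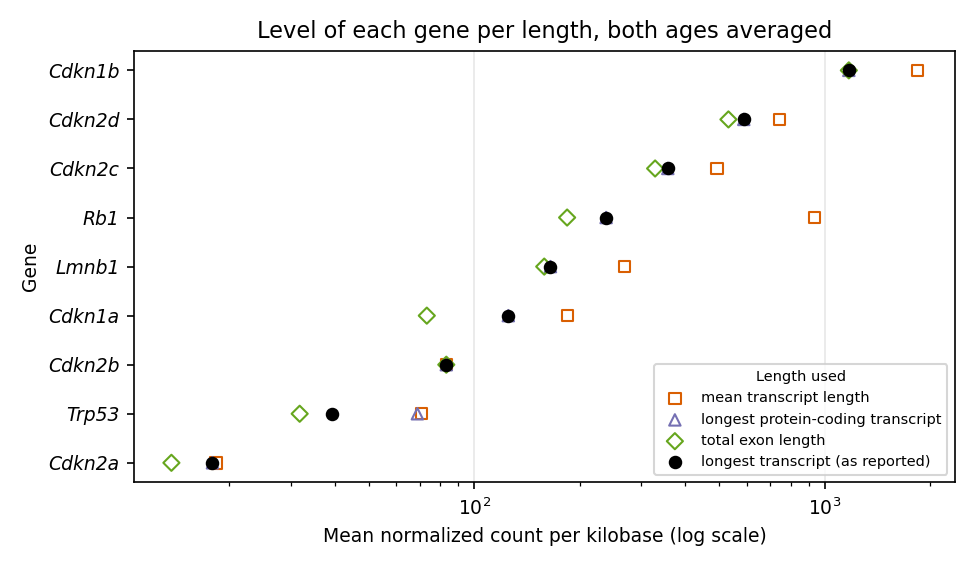
Mean normalized count per kilobase of the 9 genes on a log axis, averaged over both ages, with 1 row per gene and 1 symbol for each definition of length. Black points are the values for the longest transcript, and the largest distance between symbols of a gene is that of Rb1, from 184 with total exon length to 936 with mean transcript length.

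Genes of cell division were low in the same tissue. None of 12 such genes was above the median of all genes, and their median was 31.8 per kilobase. The lowest was Plk1, a mitotic kinase, with 10.5, and the highest was Cdk1, the kinase of mitosis, with 109. With the longest transcript as the length, Cdkn1b, Cdkn2d, Cdkn2c, Rb1, Lmnb1 and Cdkn1a were above all 12, Cdkn2b and Trp53 lay within their range, and so did Cdkn2a. With mean transcript length Cdk1 was higher than Lmnb1 and Cdkn1a, and Top2a, at 201 per kilobase, was higher than Cdkn1a at 185. With total exon length Cdk1 was higher than Cdkn1a. Mki67, a marker of cycling cells, was at 15.9 per kilobase of the longest transcript, close to Cdkn2a at 17.9. With mean transcript length Mki67 was at 30.1, and Cdkn2a, at 18.4, was below all 12 cell division genes. With total exon length Mki67 was at 15.9 and Cdkn2a at 13.7.

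Polycomb proteins keep the Cdkn2a and Cdkn2b genes silent in many tissues. Of 12 genes of this list, 7 were above the median of all genes, with a median of 379 per kilobase. Bmi1, a known repressor of the Cdkn2a locus, was the highest with 1258 per kilobase, and Cbx2 was the lowest with 25.3. Bmi1 was 70.1 times as high as Cdkn2a, or 195 times with mean transcript length. Genes that senescent cells secrete or express, with Glb1 for the lysosomal enzyme behind senescence-associated β-galactosidase, covered a wide range. The lowest of 15 was the cytokine gene Il6 with 3.47 per kilobase and the highest was Igfbp7 with 13911. Of these 15 genes, 13 reached a mean normalized count of 10 and 7 were above the median of all genes per kilobase. Several genes of this list were named by the study as senescence markers.

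**Figure D3:**
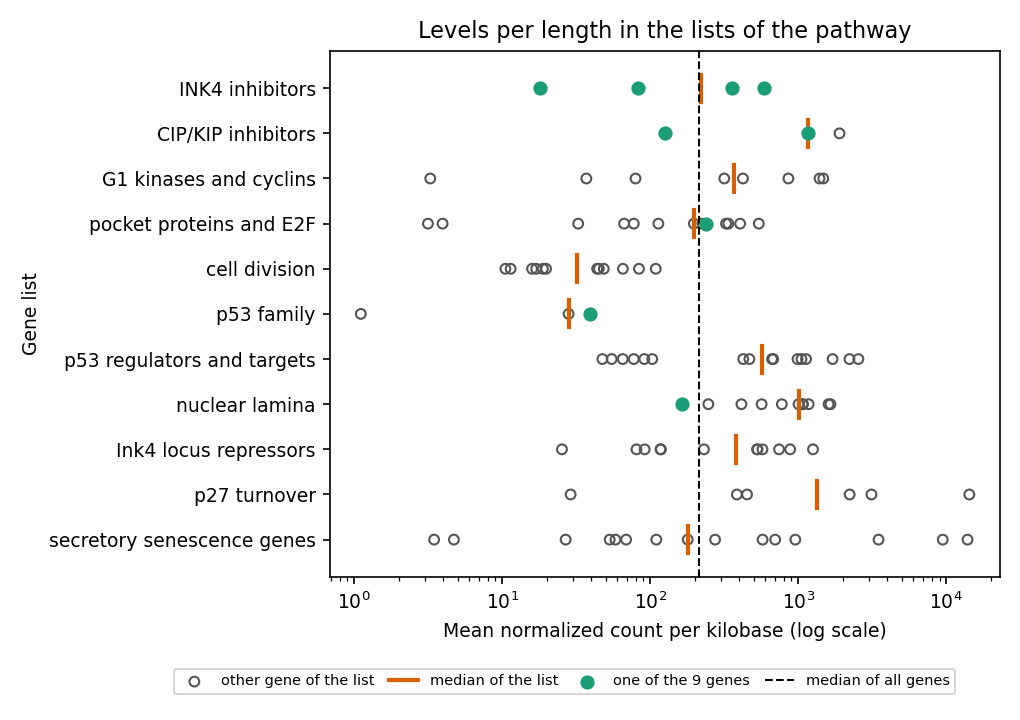
Mean normalized count per kilobase on a log axis for the genes of 11 lists, with 1 row per list. Green points are genes of the 9, open points the other genes of each list, orange bars list medians and the dashed line the median of all genes. The cell division list lies wholly below that line, and Lmnb1 is the only gene of the lamina list below it.

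The tissue held other cells besides RPE. Of 8 RPE markers, 7 were above the median of all genes, such as Rpe65 with 61154 per kilobase, and Best1 was below it with 39.3. Markers of rods (8 of 8), macrophages (6 of 6), fibroblasts (5 of 5), skeletal muscle (5 of 5) and Schwann cells (4 of 4) were above it too, as were 5 of 6 endothelial markers and the 3 red cell markers with a value. All 6 melanocyte markers were above it, but Dct and Pmel, which held 87.0% of their counts, are pigment genes that RPE also expresses, as are Tyr, Mlana and Mitf. The remaining marker, Sox10, had a mean normalized count of 1256. The summed mean normalized counts made up 2.44% of all counts for the RPE list, 1.10% for the melanocyte list, 0.736% for rods and 0.511% for skeletal muscle, against 0.0224% for the 9 genes. The part of each cell type in the level of any of the 9 genes was not tested.

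Sequence shared with other genes in the same direction, which can mix reads between genes, was rare in these 9 genes. Of the 50-base words in the transcripts of Cdkn1b, Cdkn2a, Cdkn2b, Cdkn2c, Cdkn2d, Lmnb1 and Rb1, 100% were found in no transcript of another gene. Words were compared only in the direction of the transcripts. The overlaps of Rb1 and Cdkn1a with genes on the opposite strand are therefore not counted. The share was 97.9% for Cdkn1a and 96.1% for Trp53.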

How the data were processed

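The authors sequenced poly(A)-selected RNA of RPE/choroid from 3 young mice and 3 aged mice. Per the paper's methods, read pairs were trimmed with BBDuk, mapped with STAR to Ensembl GRCm38 transcripts, quantified with Sailfish, scaled by total count and compared with DESeq2 by the authors. The deposited table has 1 line per gene. Its mean normalized count is a signal that the authors averaged over all 6 libraries. Its 5 other columns hold the authors' comparison of the ages (log2 fold change, standard error, Wald statistic, p-value and adjusted p-value). They were not used, so no test was made.

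Genes with a mean of at least 10 formed the background. Levels were divided by the length in kilobases of the longest transcript in GENCODE M21 (GRCm38), which matched 97.1% of them by symbol or synonym. The most frequent of the lowest means were taken as the worth of 1 whole count in each library, and they differed 1.11-fold at most. Whether such a count is 1 sequenced read was not tested. Whole counts per library were sought from these steps, and the search was tested on simulated data. Cdkn2a had 48 possible combinations, so no counts per library are given. Python 3.11.15 with numpy 2.4.6, pandas 2.3.3 and scipy 1.17.1 was used, and matplotlib 3.10.9 for figures.

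The genes and lists were chosen with earlier results of these data known. Named are the 9 genes, their protein families, the highest and lowest gene of each pathway list, and genes singled out after their values were seen (Cdk2, Mdm2, Mki67, Top2a, Rpe65). Marker lists are given as counts. Promoter windows were taken from RefSeq for 7 of the 9 genes. Windows on chromosome 18, which holds Lmnb1, were left out of the search and of the background, and Rb1 had no window. The mismatch in the p53 consensus was allowed after seeing the matches. Alternatives tried were other minimum means, other backgrounds, other lengths and other limits in the search for whole counts.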

Additional observations from a re-analysis of the deposited data

How the results depend on the processing

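No paired analysis was possible because each gene has 1 mean over all libraries and no value per sample. For the same reason leaving out a replicate, the replicate block and a fit of aged against young were not run. The number of genes measured was 9 with a minimum mean of 1 and 8 with a minimum of 50 or 100, which Cdkn2a missed.

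Percentiles depend on the background by construction. Among all genes with a mean above 0 they were 94.0 for Cdkn1b, 72.0 for Rb1, 68.2 for Cdkn2c, 67.2 for Cdkn2d, 58.8 for Lmnb1, 52.0 for Cdkn1a, 45.8 for Trp53, 44.9 for Cdkn2b and 30.9 for Cdkn2a. Among genes with a mean of at least 100 they were 89.4 for Cdkn1b, 50.3 for Rb1, 43.4 for Cdkn2c, 41.8 for Cdkn2d, 26.8 for Lmnb1, 14.6 for Cdkn1a, 3.56 for Trp53 and 2.05 for Cdkn2b.

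Cdkn1b had the highest and Cdkn2a the lowest level per kilobase with each length tried. With mean transcript length Rb1 took the second place, and the levels were 1839 for Cdkn1b, 936 for Rb1, 743 for Cdkn2d, 493 for Cdkn2c, 268 for Lmnb1, 185 for Cdkn1a and 70.7 for Trp53. Rb1 has short noncoding transcripts that lower its mean length. With total exon length Cdkn2b passed Cdkn1a, and the levels were 531 for Cdkn2d, 328 for Cdkn2c, 184 for Rb1, 158 for Lmnb1, 73.3 for Cdkn1a, 31.8 for Trp53 and 13.7 for Cdkn2a. With the longest protein-coding transcript Trp53 was at 68.9 and the order was as reported. Under these lengths Cdkn1b over Cdkn1a was between 9.36 and 16.0, and Rbl2 over Rb1 between 1.04 and 1.70. With total exon length Bub1 replaced Plk1 as the lowest cell division gene, and Eda2r replaced Pmaip1 as the lowest p53 target.

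The search for whole counts of Cdkn2a gave 386 combinations with a tolerance 10 times wider and 67 with no upper limit per library. With no mismatch allowed, 0 of the 10 promoter windows of the 7 genes searched held a p53 site.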
